A study of Mus musculus with 4 samples.

Results

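Genes of the mitochondrial respiratory chain, of mitochondrial protein import and of ubiquinone synthesis were examined in granulocyte-monocyte progenitors, the bone marrow precursors of neutrophils and monocytes. Members were all genes with a listed transcript whose mouse NCBI Gene symbol starts with Nduf, Cox and a digit, Atp5, Uqcr, Sdh, Timm, Tomm, Coq or Ndor. The rule found 22 genes with 29 transcripts among 5059 annotated genes with any listed transcript, fewer than the 30 below which the rule asks that the number be stated. The rule used no level and no difference between genotypes, but it did need a transcript to be listed in a library. It was set with earlier results of these data known. Of the members, 5 were listed in 1 library only. The cells came from wild-type mice (2 libraries) and from MST1-deficient mice (2 libraries). Each library was made from cells pooled from 10 mice, the sorted cells stood in serum-containing medium, and no drug was given, per the labels. The labels give no age, sex, strain, allele or deletion method for the mice. The labels do not say whether pools of the same genotype were made independently, so p-values measure the spread between these libraries, which may be technical.

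The respiratory chain passes electrons from NADH and succinate to oxygen through complexes I to IV, with ubiquinone as the mobile carrier between them, and ATP synthase uses the proton gradient that results. Nearly all subunits are encoded in the nucleus, made in the cytosol and brought in through a pore of the outer membrane, small carrier proteins of the intermembrane space and translocases of the inner membrane. Neutrophil precursors carry more mitochondria than mature neutrophils, which rely mainly on glycolysis.

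The values cover transcripts that, by their identifiers, are not in the reference annotation, called unannotated transcripts below. Annotated transcripts of the members are not analysed here. A gene's level is the sum of its listed transcripts, and a transcript missing from a library's list was set to 0 there. Levels are given as FPKM, in which an estimated count is divided by transcript length and library size, or as the estimated counts themselves. The listed unannotated transcripts of a library held 928977 to 1079382 estimated counts in all, of which the members made up 0.156% to 0.183%. These sums leave out annotated transcripts, and the library totals implied by FPKM were larger, 6913792 to 8518856. Of 17 marker genes of the progenitors, 4 had a listed transcript (Csf2rb, Fcgr2b, Gfi1 and Kit), summing to 53.2 to 65.6 FPKM per library. Nearly all of this sum came from Fcgr2b and Gfi1, since Kit reached at most 0.05 FPKM and Csf2rb at most 1.11. Mpo, Elane, Prtn3 and Ctsg had no listed transcript, so the labelled cell type was not checked by its defining markers. The 5 listed erythroid markers, which do not include Gata1 and Klf1, summed to 37.1 and 43.0 FPKM in the wild-type libraries against 28.3 and 14.2 FPKM. Of 9 eosinophil, basophil and mast cell markers 4 were listed, without Cpa3, Epx and Prg2, and summed to 151 and 190 against 113 and 126 FPKM. Of 14 lymphoid markers 6 were listed, without Cd3e and Ms4a1, and summed to 39.2 and 7.43 against 23.1 and 16.1 FPKM. Megakaryocyte markers, 4 of 6 listed without Pf4 and Vwf, summed to 38.18 and 46.45 against 46.59 and 35.32 FPKM. Stromal and endothelial markers, 2 of 7 listed (Col1a1 and Pecam1), summed to 16.15 and 5.8 against 7.68 and 3.96 FPKM. The 4 Y-linked genes Kdm5d, Uty, Ddx3y and Eif2s3y summed to 3.60 and 0 FPKM in the wild-type libraries against 23.4 and 14.8 FPKM, and each was higher in both MST1-deficient libraries. The part of these differences in the results below was not tested.

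Summed over all 22 members, the level was 222 and 266 FPKM in wild-type replicates 1 and 2, and 237 and 266 FPKM in MST1-deficient replicates 1 and 2. Both groups thus covered nearly the same range, and replicate 2 was the higher library in each. By the labels, libraries of the same number share nothing else. Their deviations from the group means correlated at 0.075 over 3221 genes. In whole progenitor pools, fewer cells of a type and less RNA per cell cannot be told apart. A single gene, Ndufab1, made up 47.1% to 54.9% of this sum in every library, followed by Ndufb11 with 19.4% to 21.7% and Timm10b with 9.78% to 14.1%. Without Ndufab1, the members summed to 120 ± 3.82 FPKM (SD, n = 2) in the wild-type group and 122 ± 2.43 FPKM in the other. The sums were not tested, since an exact permutation test of 2 against 2 libraries cannot go below 0.33.

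**Figure D1:**
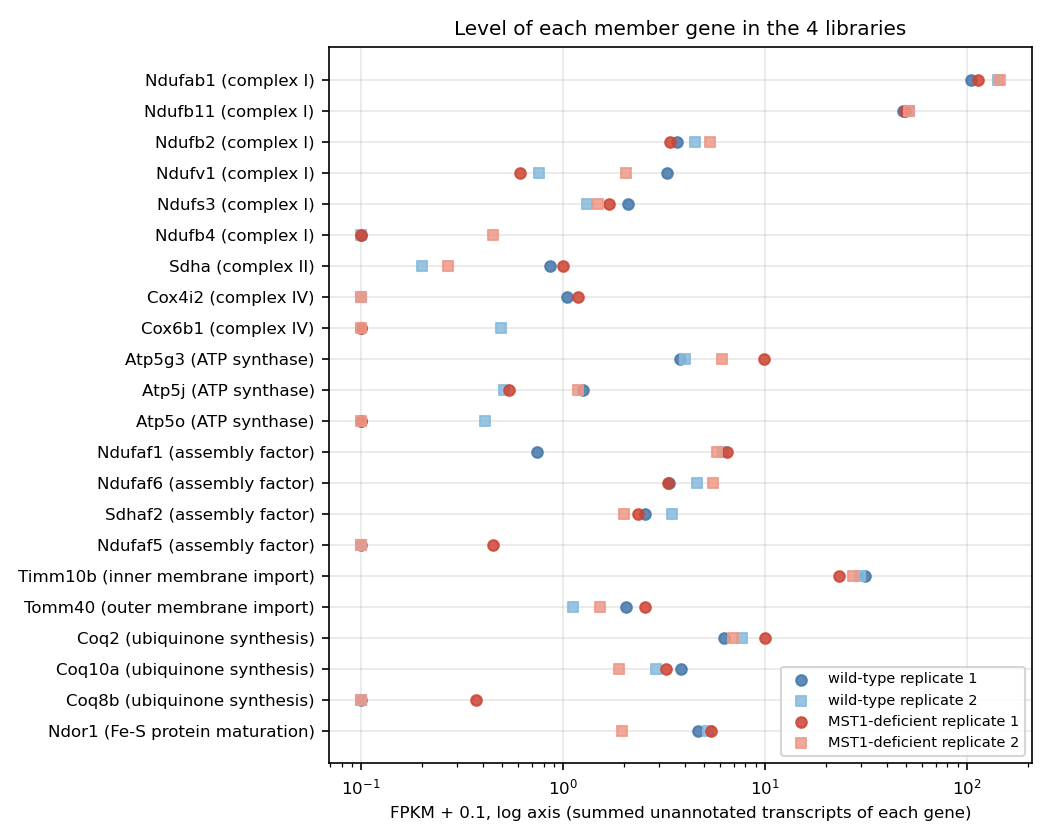
Level of each of the 22 member genes in the 4 libraries, as FPKM + 0.1 on a log axis, summed over the unannotated transcripts of the gene; each point is 1 library (blue wild type, red MST1-deficient, circles replicate 1, squares replicate 2), and points at 0.1 are libraries in which no transcript of the gene was listed. Ndufab1, Ndufb11 and Timm10b stand above all other members in every library (23.1 to 146 FPKM), and in most rows red and blue points interleave.

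Not all parts of the chain were seen through unannotated transcripts. Of 147 protein-coding genes of the RefSeq table whose symbols fit the rule, 22 had a listed transcript (15.0%), against 4954 of 21900 protein-coding genes in all (22.6%). None of the 8 complex III genes with a Uqcr symbol was listed. Listed were 6 of 41 complex I subunits, 1 of 4 complex II subunits, 2 of 18 complex IV subunits and 3 of 17 ATP synthase genes. There were 4 of 21 assembly factors, 1 of 16 Timm genes, 1 of 10 Tomm genes, 3 of 11 Coq genes and Ndor1. By position, 6 members lie on chromosome 2 and 5 on chromosome 7. The share of all listed genes on these chromosomes was not counted, so this does not show clustering.

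The listed transcripts of the members were short. Their median length was 1485 bases, against 3882 bases over the 7945 unannotated transcripts of annotated genes, and 12 of 29 (41.4%) were under 1000 bases, against 3.05%. Compared with the longest transcript of the same gene in GENCODE vM21, 10 of 29 (34.5%) were longer, against 45.1% of all unannotated transcripts with such a match. The median ratio to that longest form was 0.947 for the members and 0.988 for all, so most members were not short for their own gene. The forms of Coq10a (6577 and 3786 bases) were 4.59 and 2.64 times as long as the longest annotated form of 1434 bases. One form of Coq2 had 5997 bases (3.44 times the longest annotated form), the form of Ndufaf5 had 2710 (2.26 times) and that of Tomm40 had 4965 (1.80 times). At the other end, the listed transcripts of Ndufab1 (639 bases) and Timm10b (604 bases) were 0.184 and 0.159 times as long as the longest annotated forms. The longest form was taken over all annotated transcripts, 10 for Ndufab1 and 19 for Timm10b, whether or not they code for protein. A low ratio thus does not show that a listed form is truncated. Positions of these transcripts are not given in the sources used here, so it is unknown which exons they hold.

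**Figure D2:**
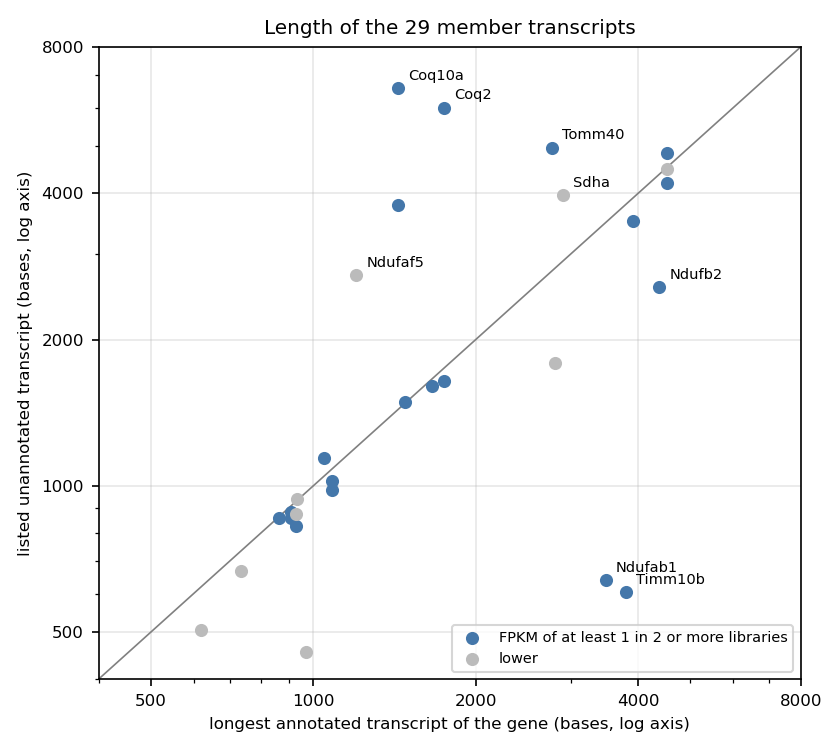
Length of the 29 listed member transcripts (vertical axis, bases) against the longest GENCODE vM21 transcript of the same gene (horizontal axis, bases), both on log axes; each point is 1 transcript, blue where it reached an FPKM of 1 in at least 2 libraries and grey where it did not, and the line marks equal length. Coq10a and a form of Coq2 lie far above the line (up to 4.59 times), and Ndufab1 and Timm10b far below it.

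Short transcripts also weigh more on the FPKM scale. In wild-type replicate 1, 1 estimated count was worth 0.250 FPKM for Ndufab1 and 0.0214 FPKM for the 5997-base form of Coq2. The highest member on the FPKM scale therefore rested on 392 to 637 counts per library, while Coq2, with 6.16 to 9.93 FPKM, rested on 178 to 298.

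Complex I, which oxidises NADH, held the highest levels. Ndufab1 encodes the mitochondrial acyl carrier protein, a subunit of complex I that also serves fatty acid synthesis and iron-sulfur cluster assembly (chromosome 7, 122086815 to 122101848 in GRCm38.p6). It had 104 and 143 FPKM in the wild-type libraries and 113 and 146 FPKM in the MST1-deficient ones. The libraries numbered 2 were the higher ones in both genotypes, and the genotypes overlapped. The mean of 127 FPKM over the 4 libraries was above that of 99.4% of the listed genes. The edgeR log2 fold change of Ndufab1 (MST1-deficient over wild type, on counts) was 0.16 with an SE of 0.36, and it was -0.24 without MST1-deficient replicate 2 and -0.12 without wild-type replicate 1. Ndufab1-ps, a pseudogene copy of Ndufab1, stands in the RefSeq table, so the split of reads between them is uncertain.

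Ndufb11, an X-linked accessory subunit of the membrane arm (chromosome X, 20615326 to 20617619), was second in level. Its level was 48.3 and 51.6 FPKM in the wild-type libraries and 49.4 and 51.4 FPKM in the MST1-deficient ones. Its log2 fold change of 0.09 had an SE of 0.27, which was the smallest SE among the tested members. Rbm10 overlaps Ndufb11 in RefSeq and also had listed transcripts, and no strand setting of the counting is given, so reads of the pair may be mixed. Ndufb2, another membrane arm subunit, had 3.58 and 4.39 FPKM in the wild-type libraries and 3.28 and 5.24 FPKM in the MST1-deficient ones, again with replicate 2 the higher library in each group.

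The core subunits were low. Ndufv1 carries the NADH binding site and had 3.16 and 0.66 FPKM in the wild-type libraries and 0.51 and 1.95 FPKM in the MST1-deficient ones. High and low libraries occurred in each group, with 37.0 and 7.2 counts against 5.19 and 24.5. Ndufs3, a core subunit near the ubiquinone site, had 2.0 and 1.21 FPKM in the wild-type libraries and 1.59 and 1.39 FPKM in the MST1-deficient ones, so the groups overlapped. Ndufb4 was listed in MST1-deficient replicate 2 alone, with 0.99 counts, below the 3 counts that a library at 0 allows; it has close copies, Ndufb4b and Ndufb4c.

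Members of complexes II and IV had FPKM values of about 1 or below. Sdha, the flavoprotein of succinate dehydrogenase, had 0.76 and 0.10 FPKM in the wild-type libraries and 0.90 and 0.17 FPKM in the MST1-deficient ones. Its transcript is long (3964 bases), and its counts were 23.1 and 23.9 in the libraries numbered 1 and 2.89 and 5.56 in those numbered 2, so that replicate 1 was the higher library in each group. Cox4i2, a tissue-restricted isoform of a regulatory subunit of cytochrome c oxidase, had 4.0 counts in each replicate 1 and was absent from the list of each replicate 2. Cox6b1, a subunit facing the intermembrane space, was listed in wild-type replicate 2 alone, with 1.06 counts. None of these 3 genes reached the level needed for testing, 2 or more libraries with an FPKM of 1 or above.

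Among genes of ATP synthase, Atp5g3 had a higher level in both MST1-deficient libraries, a difference that did not pass the test. It encodes the membrane ring subunit that carries protons (chromosome 2, 73908447 to 73912464), one of several genes with the same mature product, so reads may be shared with its relatives. Its level was 3.69 and 3.93 FPKM in the wild-type libraries and 9.75 and 6.05 FPKM in the MST1-deficient ones. The groups did not overlap, with the MST1-deficient libraries higher, on 21.2 and 21.1 counts against 48.5 and 37.8 counts. The edgeR log2 fold change of Atp5g3 was 1.10 with an SE of 0.55 (2.15-fold; adjusted p = 0.941 with edgeR's quasi-likelihood test). With limma on log2(FPKM + 0.5), the unadjusted p of Atp5g3 was 0.0419 and the adjusted p 0.750. Leaving out each library in turn gave log2 fold changes between 0.91 and 1.27. In the edgeR fit of the 2 genotypes over all 4 libraries, with no further term, this was the largest fold change among the 15 tested members, while with limma that of Ndufaf1 was larger (1.25 against 0.93).

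The other genes of ATP synthase were seen by a handful of counts. Atp5j, the coupling factor of the stalk, had 6.35 and 2.24 counts in the wild-type libraries against 2.22 and 6.51 counts, with overlap between the groups. Gabpa overlaps Atp5j in RefSeq and also had listed transcripts. Atp5o, the stalk subunit at the tip of the enzyme head, was listed in wild-type replicate 2 alone, with 1.85 counts.

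Assembly factors build the complexes without remaining in them. Ndufaf1, which acts early in the assembly of the membrane arm of complex I, had 0.64 and 6.09 FPKM in the wild-type libraries and 6.35 and 5.71 FPKM in the MST1-deficient ones. Wild-type replicate 1 stood apart with 6.86 counts, while the other 3 libraries held 59.2 to 66.1. The log2 fold change of Ndufaf1, 0.84 with an SE of 1.09, was -0.04 without wild-type replicate 1. Ndufaf6, another complex I assembly factor, had 3.25 and 4.52 FPKM against 3.22 and 5.44 FPKM, with the libraries numbered 2 above those numbered 1. Sdhaf2 attaches the flavin to Sdha. It had 2.45 and 3.35 FPKM in the wild-type libraries and 2.26 and 1.90 FPKM in the MST1-deficient ones, and the groups did not overlap. Its log2 fold change was -0.43 with an SE of 0.42 (adjusted p = 0.992 with edgeR), and it was -0.09 without wild-type replicate 2. Ndufaf5, an enzyme that modifies a complex I subunit, was listed in MST1-deficient replicate 1 alone, with 6.20 counts.

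The import machinery was represented by a carrier protein and the outer pore. Timm10b is a small Tim protein that takes part in the passage of carrier proteins to the inner membrane (chromosome 7, 105640445 to 105655748). RefSeq places Dnhd1 and a small nucleolar RNA gene over it. It had 31.3 and 29.4 FPKM in the wild-type libraries and 23.1 and 27.3 FPKM in the MST1-deficient ones. The MST1-deficient libraries were the lower pair on this scale. The counts, which are not adjusted for library size, overlapped, with 116 and 102 against 74.5 and 111. The edgeR log2 fold change of Timm10b was -0.17 with an SE of 0.37 (adjusted p = 0.992), and 0.09 without MST1-deficient replicate 1. Tomm40, the channel of the outer membrane, had 1.94 and 1.02 FPKM in the wild-type libraries and 2.44 and 1.42 FPKM in the MST1-deficient ones. Replicate 1 was the higher library of Tomm40 in each group, and the groups overlapped. Tomm40l is a close relative, so the split of reads between them is uncertain.

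Genes of ubiquinone synthesis gave the longest transcripts. Coq2, the prenyltransferase that joins the side chain to the ring, had 6.16 and 7.56 FPKM in the wild-type libraries and 9.93 and 6.85 FPKM in the MST1-deficient ones. MST1-deficient replicate 1 was the highest and the other 3 libraries lay within 6.16 to 7.56 FPKM. The log2 fold change of Coq2 was 0.44 with an SE of 0.32 (adjusted p = 0.992 with edgeR), and 0.10 without MST1-deficient replicate 1. Coq10a, a ubiquinone-binding protein needed for respiration, had 3.73 and 2.80 FPKM against 3.12 and 1.79 FPKM, with overlap. Coq8b, an atypical kinase of the pathway, was listed in MST1-deficient replicate 1 alone, with 3.05 counts.

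Ndor1 differs from the other members in place, since it passes electrons to the cytosolic machinery for iron-sulfur clusters. RefSeq places Tmem203, which had no listed transcript, over Ndor1, so reads of the pair may be mixed. Ndor1 had 4.54 and 5.15 FPKM in the wild-type libraries and 5.32 and 1.85 FPKM in the MST1-deficient ones. MST1-deficient replicate 2 was the low library, with 66.8 counts where the others held 157 to 168. The log2 fold change of Ndor1 was -0.49 with an SE of 0.51 (adjusted p = 0.992 with edgeR). Without MST1-deficient replicate 2 it was -0.0035, and without MST1-deficient replicate 1 it was -1.22.

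Across the members, no difference between the genotypes passed the test. Of the 22 genes, 15 reached the level for testing and 7 did not. With edgeR, 0 of 15 were called, where 0 of 3221 genes were called in all (0.0%). At an unadjusted p under 0.05 edgeR gave 0 of 15 members, against 5.65% of all genes tested. DESeq2 called 0 of 15 members (1.43% of all genes), with 0 of 15 at an unadjusted p under 0.05 (5.9% of all genes). On log2(FPKM + 0.5), limma called 0 of 15 (0.186% of all genes), with 1 of 15, Atp5g3, at an unadjusted p under 0.05 (6.15% of all genes). In FPKM, the pair of MST1-deficient libraries lay above the wild-type pair in 1 of 15 members, Atp5g3, against 14.1% of all genes. They lay below in 2 of 15, Sdhaf2 and Timm10b, against 18.8% of all genes. Fold changes were positive in 9 of 15 members, against 51.1% of all genes, and negative in 6 of 15, against 48.9%. The median log2 fold change was 0.16 over the 15 tested members and 0.01 over the 3221 genes. With limma on log2(FPKM + 0.5) the members' median was 0.014 and that of all genes -0.06, and with implied library totals they were 0.083 and -0.039. Leaving out MST1-deficient replicate 2 turned the members' median to -0.13, and leaving out wild-type replicate 1 turned it to -0.04.

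**Figure D3:**
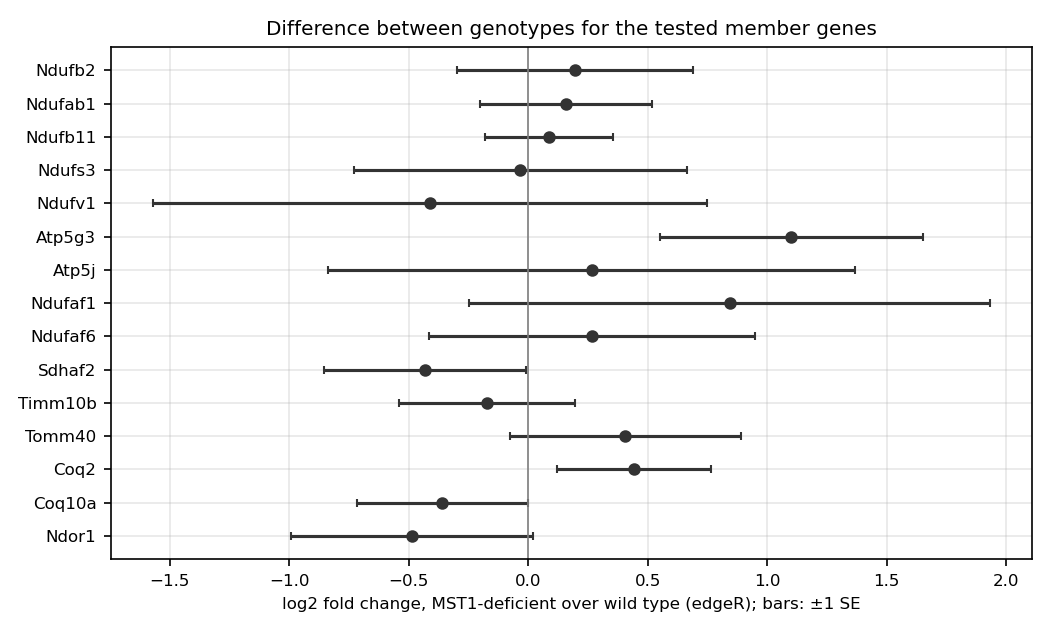
The edgeR log2 fold change (MST1-deficient over wild type) of the 15 tested member genes, ordered by role, with bars of 1 SE on either side. Atp5g3 has the largest value, 1.10, and Ndufb11 the shortest bars, and none of the 15 passed the test.

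Single transcripts gave the same count of calls. Of the 29 member transcripts, 18 were listed in all 4 libraries (62.1%), against 60.7% of all unannotated transcripts of annotated genes. Listed in both MST1-deficient libraries alone were 0 of 29 (2.23% of all), and in both wild-type libraries alone 0 of 29 (1.89% of all), shares at which a count of 0 says nothing about the members. There were 20 transcripts at the level for testing, and 0 of 20 were called with edgeR (0.0% of 4661 transcripts), DESeq2 (2.15%) or limma (0.129%). At an unadjusted p under 0.05 there were 0 of 20 with edgeR (5.26% of all transcripts), DESeq2 (5.77%) and limma (7.87%). Fold changes were positive in 12 of 20 (49.4% of all transcripts) and negative in 8 of 20 (50.6%). After Atp5g3, the smallest p belonged to the 4843-base form of Ndor1, with 2.01 and 2.30 FPKM in the wild-type libraries and 1.61 and 0.46 FPKM in the MST1-deficient ones. Its log2 fold change was -1.10 with an SE of 0.72 (adjusted p = 0.999 with edgeR). Among the 5 transcripts with the smallest p were also the 5997-base form of Coq2 (log2 fold change 0.52, SE 0.44), the Sdhaf2 transcript (-0.44, SE 0.49) and the 3786-base form of Coq10a (-0.53, SE 0.60). In FPKM, 1 of 20 transcripts had the MST1-deficient pair above the wild-type pair (13.7% of all transcripts) and 4 of 20 had them below (19.9%).

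For 6 members with several unannotated transcripts, the share of each form in the gene's FPKM could be followed. In Ndor1, the 4843-base form made up 44.3% and 44.7% in the wild-type libraries and 30.3% and 24.9% in the MST1-deficient ones, while the 4203-base form made up 55.7% and 40.8% against 69.7% and 75.1%. Neither share overlapped between the groups, but shares of a gene are parts of the same sum and not separate observations. In FPKM the 4203-base form did overlap, with 2.53 and 2.10 in the wild-type libraries and 3.71 and 1.39 in the MST1-deficient ones. How often such shares separated over all genes was not counted. The balance of Ndor1 did not pass (adjusted p = 0.814 with limma's diffSplice). A form of 4491 bases was listed in wild-type replicate 2 alone, with 14.6% of the gene.

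In Ndufaf6, the forms of 1025 and 982 bases traded places in 1 library. The 982-base form made up 96.0% in wild-type replicate 1, 6.86% in wild-type replicate 2, 0% in MST1-deficient replicate 1 and 23.2% in MST1-deficient replicate 2. The gene's sum moved far less, since the 2 forms together gave 19.7 to 41.2 counts per library. In Coq2 the 1640-base form held 41.6% and 61.6% in the wild-type libraries and 34.8% and 58.7% in the MST1-deficient ones. The replicates of each group thus differed more than the groups.

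Coq10a kept its balance most closely, with 62.9% to 70.8% in the 6577-base form over the 4 libraries. The 885-base form of Ndufb11 was listed in each replicate 1, with 19.1 and 23.9 counts, and was absent from the list of each replicate 2. Atp5j was seen as its 825-base form alone in wild-type replicate 1 and MST1-deficient replicate 2, and as its 875-base form alone in the other 2 libraries. Of the 5 members with at least 2 forms at the level for testing, diffSplice called 0, against 1.87% of 909 genes, and 0 of 5 had an unadjusted p under 0.05, against 10.9%. That test treats the transcripts of a gene as independent.

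**Figure D4:**
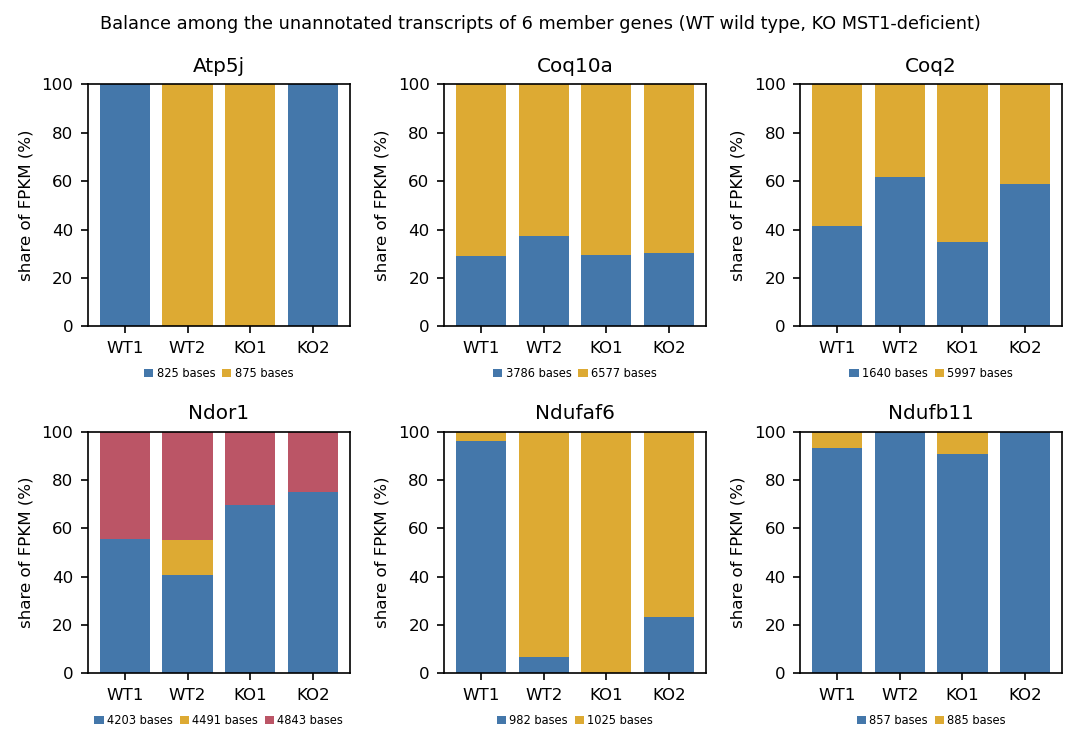
Share of each unannotated transcript in the summed FPKM of its gene (vertical axis, %) in the 4 libraries, for the 6 members with several such transcripts; colours mark forms by their length. The 982-base form of Ndufaf6 dominates in wild-type replicate 1 alone, and the 4843-base form of Ndor1 is smaller in both MST1-deficient libraries than in both wild-type ones.

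Promoter sequences were searched for motifs that the rule did not use. Promoter windows of RefSeq (GRCm38.p6) ran from 250 bases before to 50 bases after a start of the gene, called the gene start below. This start need not be the outer end of the gene's span. Such a window was found for 19 of 22 members, while Ndufaf6, Cox4i2 and Coq8b had none. Motifs known from promoters of respiratory genes were searched on both strands, in the first window of each gene. The NRF1 motif, GCGC, any base, T and GCGC, was found in 5 of 19 members (26.3%): Atp5g3, Atp5o, Ndufaf5, Ndufb4 and Sdha. Of all 27025 promoters 4.78% held it, and of the 4095 promoters of listed genes 10.3%. The ETS motif bound by GABP, CCGGAAG, was found in 5 other members (26.3%): Ndufs3, Ndufaf1, Cox6b1, Timm10b and Sdhaf2, against 9.12% of all promoters and 18.4% of those of listed genes. The YY1 motif, AAGATGGC, was in 0 of 19 windows, against 2.88% and 5.1%; a further window of Atp5j, which was not counted, holds a YY1 and an ETS match. The motif of oestrogen-related receptors, TCAAGGTCA, was in 1 of 19, Atp5g3, against 0.41% and 0.34%. Matches to different motifs did not overlap each other in the members' windows, and the NRF1 match of Ndufaf5 reads the same on both strands. The stretches below show the last 110 bases before the gene start, 5′ to 3′ on the gene's own strand, with motif matches in capitals.

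Atp5g3 is shown as the member whose MST1-deficient libraries were both higher. Its match to the oestrogen-related receptor motif, on the opposite strand, starts 52 bases before the start its window is set on. That start lies inside the gene's span of 73908447 to 73912464, so the stretch shown is not upstream of the whole gene. Ndufaf1 has an ETS match 18 bases before the start. Sdha and Ndufb4, of 2 different complexes, each hold several NRF1 matches, and both were among the low members. The windows are chr2:73911327-73911436, chr2:119662835-119662944, chr13:74350241-74350350 and chr16:37654369-37654478, all 4 on the minus strand.
Atp5g3: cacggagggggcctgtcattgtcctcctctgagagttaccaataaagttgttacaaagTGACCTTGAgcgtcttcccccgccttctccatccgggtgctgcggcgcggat
Ndufaf1: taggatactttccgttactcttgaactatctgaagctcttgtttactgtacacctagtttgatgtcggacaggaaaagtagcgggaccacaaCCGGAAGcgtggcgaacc
Sdha: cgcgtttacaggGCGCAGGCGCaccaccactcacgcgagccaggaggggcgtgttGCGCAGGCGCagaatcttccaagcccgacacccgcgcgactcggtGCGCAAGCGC
Ndufb4: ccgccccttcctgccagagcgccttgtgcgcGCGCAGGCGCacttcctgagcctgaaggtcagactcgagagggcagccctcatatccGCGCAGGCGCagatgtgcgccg
A match is a string of letters and not a measured binding site, and the start sites of the unannotated transcripts are unknown. The members with and without each motif were not compared for expression.

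Other genes of the same pathways, taken from lists of known components, gave no calls either. Of 31 further assembly factors, 4 were tested, with 0 called by edgeR and 0 at an unadjusted p under 0.05. All 4 had positive fold changes (median 0.75), and 3 of 4 were higher in each MST1-deficient library than in each wild-type one, where 14.1% of all genes were. Atpaf1, an assembly factor of ATP synthase, had 1.72 and 1.96 FPKM in the wild-type libraries and 2.97 and 2.71 FPKM in the MST1-deficient ones (log2 fold change 0.70, SE 0.38). Higd1a, a small protein of the respiratory supercomplexes, had 1.33 and 1.51 FPKM against 1.96 and 2.61 FPKM (0.79, SE 0.63). Foxred1, an assembly factor of complex I, had 7.22 and 5.29 FPKM against 4.28 and 7.18 FPKM (0.02, SE 0.48), with overlap.

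Of 28 further genes of import, processing and folding, 4 were tested, 3 with positive and 1 with negative fold changes (median 0.27). The groups did not overlap in 3 of them, 2 higher and 1 lower in the MST1-deficient libraries. Such separation was not rare: among all 3221 tested genes, 14.1% separated upward and 18.8% downward. Pmpca, a subunit of the peptidase that removes import signals, had 3.82 and 3.56 FPKM in the wild-type libraries and 4.35 and 4.36 FPKM in the MST1-deficient ones (log2 fold change 0.31, SE 0.28). Gfer, an oxidase of the intermembrane space relay, had 1.41 and 0.96 FPKM against 2.13 and 1.65 FPKM (0.75, SE 0.60). Spg7, a subunit of an inner membrane protease, had 1.43 and 1.12 FPKM against 1.10 and 0.59 FPKM (-0.58, SE 0.63). Of 17 citric acid cycle genes, 2 were tested. Idh3g, a regulatory subunit of isocitrate dehydrogenase, had 30.4 and 30.2 FPKM against 27.5 and 42.1 FPKM, and Ogdh had 13.9 and 14.2 FPKM against 14.2 and 12.5 FPKM. Idh3a, the catalytic subunit of the same dehydrogenase as Idh3g, was below the level for testing, with 0.82 and 0.88 FPKM against 1.15 and 0.46 FPKM.

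Of 22 regulators of mitochondrial DNA expression and biogenesis, 4 were tested, 1 positive and 3 negative (median -0.24). Twnk, the mitochondrial DNA helicase, had 8.80 and 7.48 FPKM against 6.48 and 8.21 FPKM. Gabpb2, a partner of the ETS factor Gabpa, had 4.89 and 9.81 FPKM against 3.34 and 6.42 FPKM, and Pprc1, a coactivator, had 4.23 and 4.92 FPKM against 6.74 and 4.47 FPKM, so the groups overlapped in all 3 genes. Of 13 genes of mitochondrial fission and fusion, 5 were tested, 2 positive and 3 negative (median -0.08), and 2 of 5 were lower in both MST1-deficient libraries, against 18.8% of all genes. Mff, the membrane receptor of the fission machinery, had 17.6 and 10.7 FPKM against 10.2 and 14.6 FPKM (log2 fold change -0.08, SE 0.44), with overlap. Opa1, the fusion GTPase of the inner membrane, had 8.93 and 4.04 FPKM against 7.88 and 5.16 FPKM (0.07, SE 0.41), with overlap. Dnm1l, the fission GTPase, had 11.6 and 11.9 FPKM in the wild-type libraries and 9.25 and 8.99 FPKM in the MST1-deficient ones, without overlap (log2 fold change -0.30, SE 0.24, adjusted p = 0.992 with edgeR). Over these lists edgeR called 0 genes and none had an unadjusted p under 0.05.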

How the data were processed

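Poly(A) RNA of 4 libraries was sequenced, 2 per genotype. The authors deposited, per library, an expected count (an estimated count, not normalised, that need not be whole) for each unannotated transcript. Per the file headers, they also deposited FPKM, a value per transcript length and library size. Counts and FPKM were related by lengths shortened by 126 to 139 bases and by implied library totals of 6913792 to 8518856. Coordinates refer to mm10 (submitters' processing notes), and the aligner, assembler, estimator and annotation are not given in the sources used here. A RefSeq symbol was found for 5051 of 5059 gene numbers (GRCm38.p6).

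Rounded counts were tested over the whole table with edgeR 4.0.16 (quasi-likelihood, TMM, 2-sided; SE from fold change and F) under R 4.3.3, with Benjamini-Hochberg adjustment over all features with 2 or more libraries with an FPKM of 1 or above. For balance, log2(FPKM + 0.5) entered diffSplice (limma 3.58.1). DESeq2 1.42.0 and limma were alternatives. The 0.5 added before the log shrinks fold changes of low values with limma, yet these were not always smaller than with edgeR (1.25 against 0.84 for Ndufaf1). The code was tested on simulated data. Named genes are the 3 highest members per role, calls, members without overlap (10 smallest p), members listed in 1 genotype, the 5 transcripts with the smallest p, and the 3 highest of each pathway list; Ndufs3, Ndufv1, Ndufb4 and Ndufaf5 were added to account for every member. Members and lists were chosen with earlier results of these data known. The floor of 3 counts for a library at 0 covers counting error only, as the labels name no molecular identifiers.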

Additional observations from a re-analysis of the deposited data

How the results depend on the processing

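No member was called under the 13 alternatives run for gene sums, the 10 for transcripts or the 8 for balance. Over all genes, the count of 0 became 6, 2 and 7 with limma at pseudocounts of 0.5, 0.1 and 1, 46 with DESeq2, and 1 among genes above 0 in all 4 libraries. Over all transcripts it became 6 with limma, 100 with DESeq2 and 2 among those above 0 in all 4 libraries. Of 195 member fold changes under alternatives, 176 kept the direction of the reported value and 19 did not; the lowest adjusted p was 0.515. Atp5j gave -0.0077, 0.0 and -0.0086 with limma at 0.5, 0.1 and 1.

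Leaving out each library in turn moved the members' median log2 fold change between -0.13 and 0.27. The range was -0.86 to 1.06 for Atp5j, -0.24 to 0.50 for Ndufab1, -0.041 to 3.33 for Ndufaf1, -0.34 to 0.70 for Ndufaf6 and -0.12 to 0.27 for Ndufb11. It was -0.38 to 0.61 for Ndufb2, -0.28 to 0.27 for Ndufs3, -1.98 to 1.02 for Ndufv1 and -0.50 to 0.094 for Timm10b. In 6 members no alternative changed the direction. With the replicate number as a block, 0 members were called and their median was 0.13. Libraries that share a number share nothing else by the labels, and their deviations from the group means correlated at 0.075 over 3221 genes. Balance calls over all genes numbered 26 and 13 at pseudocounts of 0.1 and 1, 0 with the block, 0 among transcripts above 0 in all 4 libraries, and 0, 0, 6 and 10 without wild-type replicates 1 and 2 and MST1-deficient replicates 1 and 2, against 17. Of the 22 members, 7 stayed below the level for testing. The members' median was 0.014 with limma at each pseudocount and 0.083 with implied library totals. Ndufaf1 gave 1.25, 1.52 and 1.04 with limma at 0.5, 0.1 and 1 and 1.55 with the replicate block, above Atp5g3 in each (0.93, 0.99, 0.86 and 1.10).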
